A study of Homo sapiens with 6 samples.

Results

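A set of 48 genes of glucose metabolism and of the hypoxia-inducible factor (HIF) pathway was described in human dermal fibroblasts (HDFs) with and without TFEB knockdown. The genes were taken by exact gene name from a table of 62754 genes, with no threshold on their values, but the set itself was drawn up with earlier results of these data known. They comprised 8 HIF factors and oxygen sensors, 20 glucose transporters and glycolytic enzymes, 7 genes of lactate metabolism and of the kinases that control pyruvate dehydrogenase, and 13 other known HIF targets outside the collagen-modifying enzymes. The HDFs were HFF-2 cells, a commercial fibroblast line, grown in low-glucose medium. SCR HDFs carried a lentiviral scramble hairpin, and TFEB-KD HDFs carried a lentiviral hairpin (shRNA) against TFEB, a transcription factor of lysosome and autophagy genes. Both groups received 40 µM tert-butyl hydroperoxide (tBHP), an organic oxidant, for 1 h and 2 times per day, and were harvested at tBHP day 4. The labels name no low-oxygen treatment, and no library came from HDFs without tBHP, so the comparison shows the effect of the hairpin in stressed HDFs and not the effect of tBHP. Each group had 3 RNA-seq libraries made with 1 hairpin per group, and effects of TFEB loss and of that hairpin cannot be told apart. The methods state in general that independent biological replicates were used, but the labels do not say whether these libraries came from separate cultures or transductions, so p-values measure the spread between these libraries, which may be technical in part. The total counts were 55135426, 38769620 and 49992885 in SCR and 42433767, 43002866 and 51499335 in TFEB-KD.

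HIF is a pair of an oxygen-regulated alpha subunit (HIF1A or EPAS1) and a constant partner, ARNT. When oxygen is present, the prolyl hydroxylases EGLN1, EGLN2 and EGLN3 mark the alpha subunit for removal through VHL, and HIF1AN blocks its activity, so HIF is controlled mainly at the protein and not at the mRNA level. Active HIF binds short sites with an ACGTG or GCGTG core and is known to raise glucose transporters, most glycolytic enzymes, LDHA and PDK1, which together direct glucose towards lactate.

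SCR and TFEB-KD were compared in edgeR with its quasi-likelihood test, p-values were adjusted by the Benjamini-Hochberg method over the 16931 genes with enough counts, and a gene was called at an adjusted p under 0.05 with an absolute log2 fold change (TFEB-KD over SCR) over 0.36. The SCR libraries held 809, 562 and 784 TFEB counts, and the TFEB-KD libraries 420, 364 and 471. In CPM, the counts divided by each library's TMM-adjusted size, TFEB averaged 15.4 ± 0.867 (SD, n = 3) for SCR and 8.90 ± 0.707 (SD, n = 3) for TFEB-KD, a log2 fold change of -0.80 (standard error, SE, 0.077, adjusted p = 1.37e-05). TFEB mRNA was thus reduced and not lost, to 57.6% of the SCR level.

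The fibroblast label was checked against marker genes. All 11 fibroblast markers passed the count filter, and their summed abundance was 11950, 11860 and 12098 TPM (a measure of transcript abundance per transcript length) in SCR and 9092, 9114 and 9130 TPM in TFEB-KD. VIM, an intermediate filament, was the most abundant, and its log2 fold change was -0.01. Of the 11, PDGFRA and DCN were called higher (18.2%, beside 9.99% of all genes tested) and 7 were called lower (63.6%, beside 15%), among them COL3A1 with a log2 fold change of -3.12 and COL1A1 with -1.52. The 6 smooth muscle and pericyte markers summed to 133, 142 and 173 TPM in SCR and to 57.5, 58.2 and 56.8 TPM in TFEB-KD. CNN1 was the most abundant of them in SCR and ACTA2 in TFEB-KD, and ACTA2, CNN1, DES and MCAM were called lower (66.7%, beside 15% of all genes tested). The 5 epithelial markers summed to 751, 777 and 859 TPM in SCR and 482, 518 and 509 TPM in TFEB-KD. That sum was led by KRT19, which fibroblasts in culture can express, and the defining gene CDH1 did not pass the count filter. Endothelial markers summed to at most 0.454 TPM, melanocyte markers to at most 1.01 TPM (TYR had no count) and immune markers to at most 1.70 TPM in any library. The 7 keratinocyte markers summed to between 61.7 and 70.7 TPM, nearly all of it from KRT10, while KRT5, KRT14, KRT1 and TP63 did not pass the count filter. In bulk libraries, fewer cells of a kind and less RNA per cell cannot be told apart, and the part of the marker changes in the results that follow was not tested. The paper reports lower cell numbers and more apoptotic cells in tBHP-treated TFEB-KD HDFs than in SCR HDFs. Effects of cell density or survival and a change per cell cannot be told apart in these libraries, and their part was not tested.

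Of the 48 genes, 45 passed the count filter, and 14 were called, 10 higher and 4 lower in TFEB-KD. This was 31.1% of those tested, beside 24.9% of all genes tested. By direction, 22.2% were higher, beside 9.99% of all genes tested, and 8.89% were lower, beside 15%. The balance of all calls depended on the scaling, with 1691 genes higher and 2532 lower after TMM and 2497 higher and 2047 lower with library sizes alone, where 10 of the 48 genes were called higher and 3 lower. At any fold, an adjusted p under 0.05 was met by 29 of the 45 genes, 16 higher and 13 lower, beside 44.7% of all genes tested (20.7% higher, 24% lower). The CPM of the groups did not overlap for 36 of the 45, 19 higher and 17 lower, beside 55.4% of all genes tested (27% higher, 28.4% lower). With each library left out in turn, 21 of the 29 genes met the adjusted p in every fit. These fits hold fewer libraries and the matching share of all genes was not computed, so the losses cannot be read as a trait of these genes. The calls were spread unevenly over the roles. None of the 7 tested HIF factors and sensors was called. Among 20 transporters and glycolytic enzymes 3 were higher and 2 lower, and among 6 tested lactate and pyruvate dehydrogenase kinase genes 1 was higher. Among the 12 tested other HIF targets, 6 were higher and 2 lower. The median log2 fold change was -0.14 for the HIF factors and sensors, -0.0047 for the glycolytic genes, -0.092 for the lactate and kinase genes and 0.46 for the other HIF targets, beside 0.0033 for all genes tested. The median absolute log2 fold change was 0.16 for the glycolytic genes and 0.80 for the other HIF targets, beside 0.23 for all genes tested. An absolute log2 fold change over 1 was reached by 4 of the genes, all higher and all in the last list, beside 2.49% of all genes tested that were higher and 5.1% that were lower at this size. With each library left out in turn, 9 to 10 of the 48 genes were higher and 4 to 5 lower. Of all genes tested in those fits, 1582 to 1690 were higher and 2294 to 2493 lower. In edgeR's glmTreat, which tests against the fold threshold itself, HK2, ENO2 and PFKL were not called. In that test 8 of the 48 genes were higher and 3 lower, beside 788 and 1573 of all genes tested.

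Among the 48 genes, the transcripts of the HIF factors and oxygen sensors differed little between the groups. HIF1A, the ubiquitous alpha subunit, was at 225, 233 and 259 CPM in SCR and at 216, 211 and 196 CPM in TFEB-KD. The highest TFEB-KD library lay below the lowest SCR library, but the log2 fold change was -0.20 (SE 0.059, adjusted p = 0.0174), under the fold threshold. With library sizes alone the adjusted p was 0.107, and in TPM the groups overlapped, at 73.1, 74.7 and 82.8 in SCR and 71.1, 74.5 and 63.4 in TFEB-KD. EPAS1, which encodes the alternative alpha subunit HIF-2α, was at 305, 321 and 332 CPM in SCR and at 388, 382 and 373 CPM in TFEB-KD. Its log2 fold change was 0.26 (SE 0.045, adjusted p = 9.23e-04), again without overlap and under the fold threshold. In TPM, where the pipeline also estimates transcript length, EPAS1 was at 76.4, 117 and 120 in SCR and at 132, 127 and 95.8 in TFEB-KD, and the groups overlapped. The partner ARNT had a log2 fold change of -0.20 (adjusted p = 0.0148), and VHL, the substrate receptor that removes hydroxylated HIF, one of -0.17 (adjusted p = 0.0131).

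The hydroxylases showed the same small range. EGLN1, the main oxygen sensor, was at 29.4, 28.2 and 29.9 CPM in SCR and at 26.4, 26.7 and 26.6 CPM in TFEB-KD, a log2 fold change of -0.14 (SE 0.047, adjusted p = 0.0354). In TPM its groups overlapped, with means of 10.13 ± 1.18 (SD, n = 3) for SCR and 10.12 ± 2.39 (SD, n = 3) for TFEB-KD, and limma on log2(TPM + 1) gave -0.017. EGLN2 had a log2 fold change of 0.11 (adjusted p = 0.0466), and HIF1AN one of 0.053 (adjusted p = 0.398). EGLN3, itself a known HIF target, had only 14, 7 and 5 counts in SCR and 6, 5 and 4 counts in TFEB-KD and was not tested. Its groups overlapped, and a difference was not detectable at this depth. Over the 3 hydroxylases, EGLN2 made up 85.4% ± 1.63 (SD, n = 3) of the summed TPM for SCR and 86.9% ± 2.57 (SD, n = 3) for TFEB-KD. Of these 7 tested genes, 6 met an adjusted p under 0.05 at any fold, 2 higher and 4 lower, beside 44.7% of all genes tested (20.7% higher, 24% lower). EPAS1 alone met it with each library left out in turn, and HIF1A, ARNT, VHL, EGLN1 and EGLN2 each lost it in at least 1 of these fits, so that 1 to 4 of the 7 passed. The share of all genes that passed in these fits was not computed.

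The 4 largest changes were those of secreted factors and of a transcriptional repressor. ANGPTL4, a secreted inhibitor of lipoprotein lipase, was at 12.7, 10.5 and 11.1 CPM in SCR and at 41.7, 37.8 and 38.0 CPM in TFEB-KD. It rose 3.43-fold, and every TFEB-KD library was far above every SCR library. VEGFA, the angiogenic growth factor, was at 63.1, 56.3 and 68.2 CPM in SCR and at 182, 176 and 173 CPM in TFEB-KD, 2.83-fold higher. BHLHE40, a helix-loop-helix repressor that also acts in the circadian clock, was at 23.5, 22.8 and 30.0 CPM in SCR and at 66.9, 62.2 and 62.6 CPM in TFEB-KD, 2.51-fold higher. In BHLHE40, SCR replicate 3 stood above the other SCR libraries and still far below the TFEB-KD libraries. The log2 fold changes were 1.77 (SE 0.074, adjusted p = 3.31e-08) for ANGPTL4, 1.50 (SE 0.063, adjusted p = 3.39e-08) for VEGFA and 1.33 (SE 0.090, adjusted p = 9.41e-07) for BHLHE40. STC1, which encodes the secreted glycoprotein stanniocalcin, had a log2 fold change of 1.11 (SE 0.090, adjusted p = 3.84e-06). NDRG1, a stress-responsive cytoplasmic protein, followed with 0.84 (SE 0.063, adjusted p = 2.03e-06) and KDM3A, a histone demethylase, with 0.66 (SE 0.065, adjusted p = 1.53e-05). All 6 were called higher under each of the normalization, filter, test and leave-one-out alternatives at the fold threshold of 0.36.

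Of the remaining known HIF targets, BHLHE41 and ADM fell and the others were not called. BHLHE41, the paralogue of BHLHE40 with the same kind of repressor activity, was at 6.23, 6.06 and 6.12 CPM in SCR and at 3.43, 3.61 and 3.35 CPM in TFEB-KD. The libraries of a group were nearly alike, and BHLHE41 fell by 0.83 on the log2 scale (SE 0.090, adjusted p = 3.45e-05) while BHLHE40 rose. ADM, which encodes the vasodilator peptide adrenomedullin, was at 129, 137 and 147 CPM in SCR and at 96.9, 102 and 91.6 CPM in TFEB-KD. Its log2 fold change was -0.51 (SE 0.058, adjusted p = 4.53e-05), with no overlap. MXI1, an antagonist of MYC, had a log2 fold change of 0.27 (adjusted p = 0.0196), CA12, a carbonic anhydrase, 0.13 (adjusted p = 0.118), and ANKRD37 0.23 (adjusted p = 0.296). The ANKRD37 value ran from 0.12 without SCR replicate 2 to 0.40 without SCR replicate 1. PPFIA4 had a mean of 0.586 CPM in SCR and 0.331 CPM in TFEB-KD, and its log2 fold change of -0.77 had an SE of 0.40 (adjusted p = 0.141). CA9, a carbonic anhydrase often used as a marker of hypoxia, had 3, 4 and 2 counts in SCR and 2, 1 and 3 counts in TFEB-KD, so it was at most barely detected in either group.

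**Figure D1:**
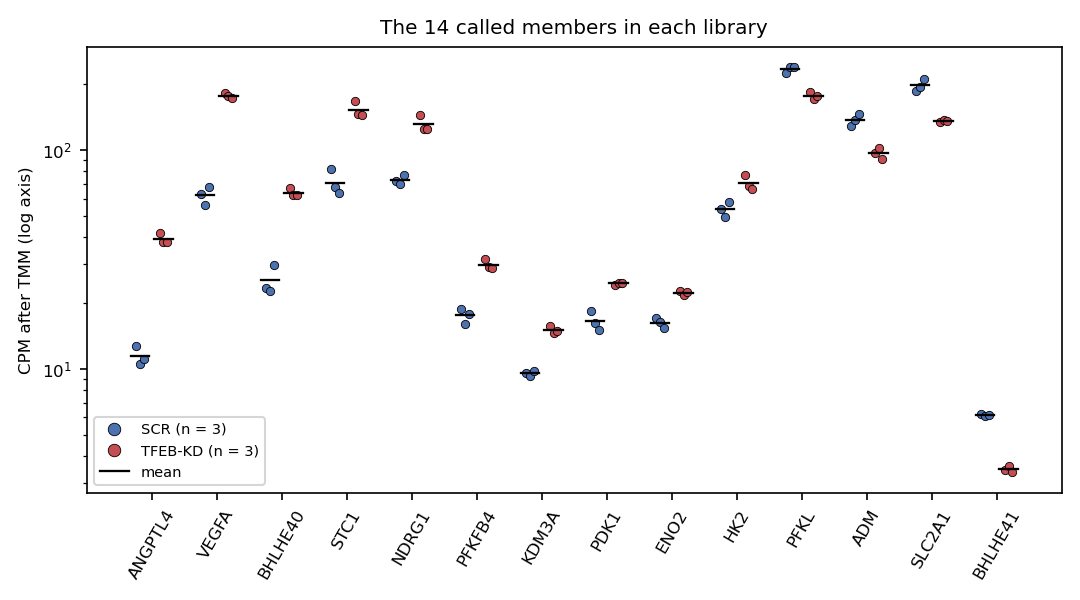
CPM after TMM (log axis) of the 14 called genes in each SCR (blue) and TFEB-KD (red) library, with the group mean as a line. For each gene, the 3 libraries of one group lie apart from the 3 of the other, with the widest gap for ANGPTL4.

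Sequences upstream of the start site were read from RefSeq (GRCh38.p14) because HIF and the BHLHE repressors are DNA-binding factors with known core letters. Shown are the 250 bases before the start, on the strand of the gene, for the called genes with the largest changes among those that have 1 RefSeq window with little or no overlap with exons of the same gene (ANGPTL4 and BHLHE40 higher, BHLHE41, SLC2A1 and ADM lower). Capitals mark the letters ACGTG or GCGTG on either strand, read as CACGT or CACGC where they lie on the opposite strand, and CACGTG, the E-box, counts on both strands at once. The windows are chr19:8363905-8364154 (plus strand, in an intron of a longer annotated ANGPTL4 transcript), chr3:4979187-4979436 (plus strand, in an intron of the antisense gene BHLHE40-AS1), chr12:26125038-26125287 (minus strand, in an intron of SSPN on the opposite strand, with 133 bases in an exon of a long noncoding RNA), chr1:42958869-42959118 (minus strand, with 70 bases in exons of the divergent transcript SLC2A1-DT, 54 in an exon of another long noncoding RNA and 25 in an exon of another annotated SLC2A1 transcript) and chr11:10304823-10305072 (plus strand, with 55 bases in an exon of SBF2 on the opposite strand).
ANGPTL4: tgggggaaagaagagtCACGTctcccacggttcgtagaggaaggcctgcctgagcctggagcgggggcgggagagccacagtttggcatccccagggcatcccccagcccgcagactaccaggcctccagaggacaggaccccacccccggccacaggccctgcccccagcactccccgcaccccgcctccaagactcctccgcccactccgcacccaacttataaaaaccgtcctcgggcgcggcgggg
BHLHE40: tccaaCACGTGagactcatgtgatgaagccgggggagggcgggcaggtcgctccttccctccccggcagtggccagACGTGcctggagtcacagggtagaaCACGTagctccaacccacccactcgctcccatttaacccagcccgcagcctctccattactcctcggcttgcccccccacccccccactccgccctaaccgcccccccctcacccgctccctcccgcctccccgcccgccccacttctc
BHLHE41: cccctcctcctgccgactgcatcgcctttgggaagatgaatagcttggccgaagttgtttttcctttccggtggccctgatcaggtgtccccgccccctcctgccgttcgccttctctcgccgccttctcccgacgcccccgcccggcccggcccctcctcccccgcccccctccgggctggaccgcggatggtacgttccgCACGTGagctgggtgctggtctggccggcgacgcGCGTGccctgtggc
SLC2A1: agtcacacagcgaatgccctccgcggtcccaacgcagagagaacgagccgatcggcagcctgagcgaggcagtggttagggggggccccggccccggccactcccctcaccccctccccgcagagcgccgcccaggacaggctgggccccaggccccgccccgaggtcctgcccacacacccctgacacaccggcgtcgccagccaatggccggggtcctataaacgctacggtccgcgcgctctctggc
ADM: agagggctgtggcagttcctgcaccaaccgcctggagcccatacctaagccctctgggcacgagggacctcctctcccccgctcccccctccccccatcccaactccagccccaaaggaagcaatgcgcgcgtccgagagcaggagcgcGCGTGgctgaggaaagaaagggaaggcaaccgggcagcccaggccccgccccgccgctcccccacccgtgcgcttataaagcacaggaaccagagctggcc

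ANGPTL4 held 1 match, at 234 bases before the start. BHLHE40 held matches at 245, 244, 174 and 149 bases before the start, the first 2 of which form 1 E-box. BHLHE41 also held 1 E-box, at 48 bases, and a GCGTG at 14 bases, so the E-box letters were in the windows of both the repressor that rose and the one that fell. ADM held 1 GCGTG at 101 bases, and SLC2A1 none in the 250 bases before the start and 1 in the 300-base window that goes on 50 bases past it. Over these 300-base windows, 48 of the 74 windows of 41 of the genes (64.9%) held ACGTG or GCGTG on either strand, beside 48.4% of all 35116 RefSeq windows. The letters were in 9 of 10 windows of 7 genes called higher and in 4 of 4 windows of 4 genes called lower. They were in 34 of 57 windows (59.6%) of 27 genes that were not called. Several windows can thus belong to the same gene, and the comparison with all windows was not matched for base composition. CACGTG was in 16.2% of the windows of these genes, beside 7.26% of all windows. A match is a description of letters and not a binding site. PFKFB2, SLC2A3, SLC16A1, STC1, VEGFA, NDRG1 and VHL had no window.

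Of the glucose transporters, SLC2A1 fell. SLC2A1, which encodes the transporter GLUT1, was at 187, 195 and 213 CPM in SCR and at 135, 137 and 136 CPM in TFEB-KD. The TFEB-KD libraries were nearly alike and all below SCR, with a log2 fold change of -0.54 (SE 0.051, adjusted p = 1.07e-05). This was the largest decrease among the 20 listed transporters and glycolytic enzymes. SLC2A3, the GLUT3 gene, had a log2 fold change of -0.19 (SE 0.077, adjusted p = 0.0661), which came to -0.084 without SCR replicate 3. Summed over both genes, uptake transcripts were at 192 ± 9.15 TPM (SD, n = 3) for SCR and 138 ± 6.18 TPM (SD, n = 3) for TFEB-KD.

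The enzymes of the first, committing steps changed in different directions. HK2, the inducible hexokinase, was at 54.1, 49.4 and 58.2 CPM in SCR and at 76.7, 68.7 and 66.4 CPM in TFEB-KD. It was higher in every TFEB-KD library, but its log2 fold change of 0.39 (SE 0.069, adjusted p = 1.04e-03) lay close to the fold threshold and came to 0.33 when SCR replicate 2 was left out and 0.34 when TFEB-KD replicate 1 was, where the call was lost. HK1, the housekeeping hexokinase, had a log2 fold change of -0.13 (adjusted p = 0.0469), which came to -0.070 without TFEB-KD replicate 2. With each library left out in turn, its adjusted p in edgeR rose to as much as 0.306. PFKL, the liver-type phosphofructokinase, was at 226, 240 and 240 CPM in SCR and at 184, 172 and 177 CPM in TFEB-KD. It fell by 0.40 on the log2 scale (SE 0.045, adjusted p = 3.71e-05), and by 0.31 with library sizes alone, under the fold threshold. Its isoforms PFKM and PFKP had log2 fold changes of 0.047 (adjusted p = 0.422) and -0.076 (adjusted p = 0.183), the latter 0.014 with library sizes alone.

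PFKFB4, a bifunctional enzyme that makes and removes the sugar phosphate activating phosphofructokinase, was at 18.8, 16.0 and 17.8 CPM in SCR and at 31.7, 29.2 and 29.0 CPM in TFEB-KD. It had the largest increase among the 20 listed transporters and glycolytic enzymes, with a log2 fold change of 0.77 (SE 0.067, adjusted p = 6.32e-06) and no overlap. Its paralogue PFKFB3 had a log2 fold change of 0.21 (SE 0.056, adjusted p = 0.0109), and PFKFB2, at a mean of 3.66 CPM in SCR, one of 0.041 (adjusted p = 0.791). Over the 3 PFKFB genes, the summed level was 26.6 ± 1.04 TPM (SD, n = 3) for SCR and 37.1 ± 2.65 TPM (SD, n = 3) for TFEB-KD.

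None of the most abundant enzymes was called. Per transcript length, the 5 most abundant of the 48 genes over all libraries were GAPDH with a mean of 5013 TPM, the pyruvate kinase PKM with 2470 TPM, the aldolase ALDOA with 1363 TPM, the enolase ENO1 with 1289 TPM and LDHA with 925 TPM. GAPDH was at 3928, 4144 and 3948 CPM in SCR and at 4606, 4818 and 4767 CPM in TFEB-KD. Its log2 fold change of 0.24 (SE 0.041, adjusted p = 8.16e-04) stayed under the fold threshold, and the groups did not overlap in CPM or in TPM. This concerns a gene that is widely used as a reference for normalizing PCR and blots. PKM was at 3577, 3686 and 3702 CPM in SCR and at 3554, 3448 and 3451 CPM in TFEB-KD, a log2 fold change of -0.069 (adjusted p = 0.175) that came to 0.021 with library sizes alone. ALDOA was at 1338, 1379 and 1410 CPM in SCR and at 1266, 1244 and 1241 CPM in TFEB-KD, a log2 fold change of -0.14 (adjusted p = 0.0172). This value came to -0.048 with library sizes alone, and its adjusted p in edgeR reached 0.102 with each library left out in turn. ENO1 was at 1588, 1627 and 1542 CPM in SCR and at 1518, 1523 and 1452 CPM in TFEB-KD, a log2 fold change of -0.082 (adjusted p = 0.138) that came to 0.0070 with library sizes alone.

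Of the other enzymes of this stretch, ENO2 was called. ENO2, the enolase isoform typical of neurons, was at 17.1, 16.3 and 15.3 CPM in SCR and at 22.6, 21.7 and 22.3 CPM in TFEB-KD, a log2 fold change of 0.45 (SE 0.058, adjusted p = 1.08e-04). All TFEB-KD libraries lay above all SCR libraries, and the level stayed far below that of ENO1. GPI, which converts glucose-6-phosphate to fructose-6-phosphate, had a log2 fold change of 0.17 (adjusted p = 6.48e-03), PGK1, a kinase that yields ATP, -0.18 (adjusted p = 5.11e-03), TPI1 0.082 (adjusted p = 0.137) and PGAM1 0.012 (adjusted p = 0.830). ALDOC, at a mean of 8.75 CPM in SCR, had a log2 fold change of -0.022 (adjusted p = 0.888). Many of these enzymes have processed pseudogenes, to which reads can be assigned. Rows of such pseudogenes held at most 0.610% of the counts of any enzyme and its pseudogenes together, the highest share being that of TPI1.

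**Figure D2:**
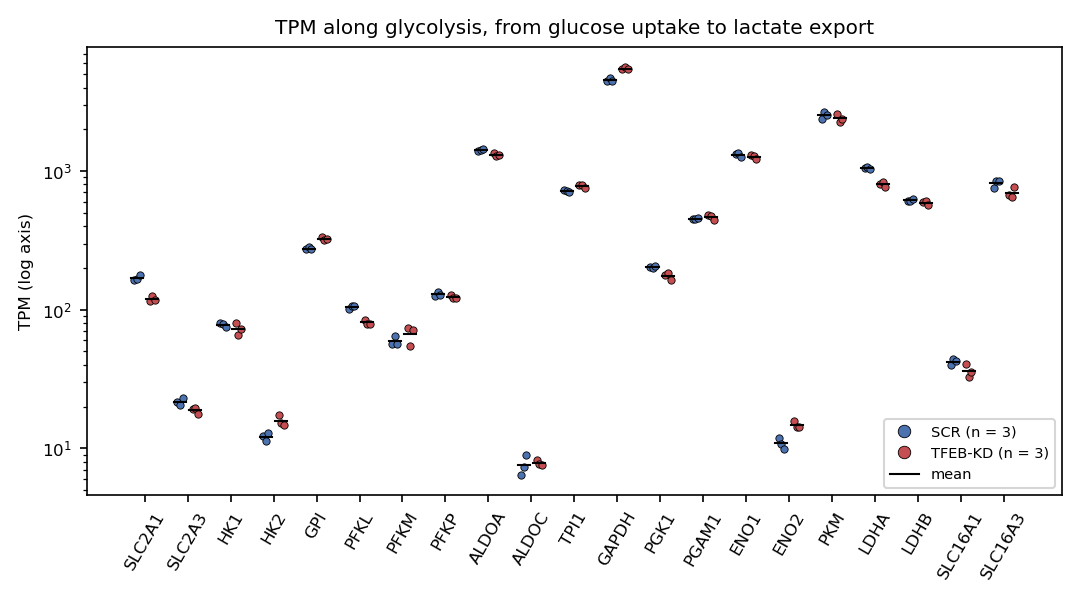
TPM (log axis) in each SCR (blue) and TFEB-KD (red) library for the genes from glucose uptake to lactate export, with group means as lines. GAPDH is the highest at a mean of 5013 TPM. Without overlap between the groups, SLC2A1, SLC2A3, PFKL, ALDOA, PGK1, LDHA and LDHB lie lower in TFEB-KD. Likewise without overlap, HK2, GPI, TPI1, GAPDH and ENO2 lie higher.

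Of the genes that handle pyruvate, PDK1 rose, and LDHA and SLC16A3 passed the p threshold but not the fold threshold. LDHA, which reduces pyruvate to lactate, was at 1087, 1186 and 1143 CPM in SCR and at 893, 909 and 878 CPM in TFEB-KD. The groups were well apart, and the log2 fold change of -0.35 (SE 0.045, adjusted p = 1.04e-04) was just short of the fold threshold. LDHA was called lower on TPM, where limma on log2(TPM + 1) gave a log2 fold change of -0.39, and at -0.42 in edgeR with transcript length offsets. SLC16A3, which encodes the lactate exporter MCT4, had a log2 fold change of -0.32 (SE 0.048, adjusted p = 3.44e-04). LDHB had one of -0.089 (adjusted p = 0.0945), which came to 0.00047 with library sizes alone, and SLC16A1, the MCT1 gene, one of 0.082 (adjusted p = 0.144).

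PDK1, a kinase that inhibits pyruvate dehydrogenase, was at 18.4, 16.3 and 15.0 CPM in SCR and at 24.3, 24.8 and 24.6 CPM in TFEB-KD. All TFEB-KD libraries lay above all SCR libraries, with a log2 fold change of 0.57 (SE 0.071, adjusted p = 9.55e-05). PDK2 had a log2 fold change of -0.094 (adjusted p = 0.306), which ran from -0.16 without SCR replicate 1 to -0.036 without TFEB-KD replicate 3. PDK4 had no count in SCR and 2, 0 and 4 counts in TFEB-KD and was not tested. LDHA and PDK1, both textbook HIF targets that act on the same pyruvate pool, thus stood on opposite sides of zero.

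Because TPM is per length, the isoforms of an enzyme could be set against each other as shares of their summed TPM. LDHB, the isoform that favours lactate oxidation, made up 36.7%, 36.4% and 37.9% of LDHA and LDHB in SCR and 42.4%, 42.3% and 42.6% in TFEB-KD. LDHB itself was not higher, with mean TPM of 615 in SCR and 591 in TFEB-KD, while LDHA went from 1049 to 801. HK2 made up 13.3%, 12.5% and 14.7% of the hexokinases in SCR and 17.7%, 19.0% and 16.8% in TFEB-KD. PFKL made up 35.7%, 34.8% and 36.5% of the phosphofructokinases in SCR and 29.5%, 30.9% and 28.9% in TFEB-KD. In all 3 enzymes the libraries of the groups did not overlap, and the differences of the means were 5.46, 4.38 and -5.90 percentage points. PFKFB3 made up 59.6% ± 3.03 (SD, n = 3) of the PFKFB genes for SCR and 50.6% ± 0.343 (SD, n = 3) for TFEB-KD. Its own mean TPM was 15.8 in SCR and 18.8 in TFEB-KD, while that of PFKFB4 went from 10.1 to 17.5. SLC2A1 made up 88.7% ± 0.372 (SD, n = 3) of both transporters for SCR and 86.4% ± 0.694 (SD, n = 3) for TFEB-KD. ENO2 made up 0.819% ± 0.0622 (SD, n = 3) of the enolases for SCR and 1.15% ± 0.0465 (SD, n = 3) for TFEB-KD. These shares, and those of PFKM and PFKP, each reached p = 0.1 in a two-sided exact permutation test, the smallest that 3 against 3 allow, so none could pass 0.05 (Benjamini-Hochberg adjusted p = 0.175 over 14 shares). EPAS1 made up 57.1% ± 5.27 (SD, n = 3) of both alpha subunits for SCR and 62.7% ± 2.43 (SD, n = 3) for TFEB-KD, with overlapping groups (two-sided exact permutation p = 0.2, adjusted p = 0.28). The difference of 5.66 percentage points came to 2.67 without SCR replicate 1. The shares of ALDOC, SLC16A3, EGLN1, EGLN2 and EGLN3 also overlapped.

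**Figure D3:**
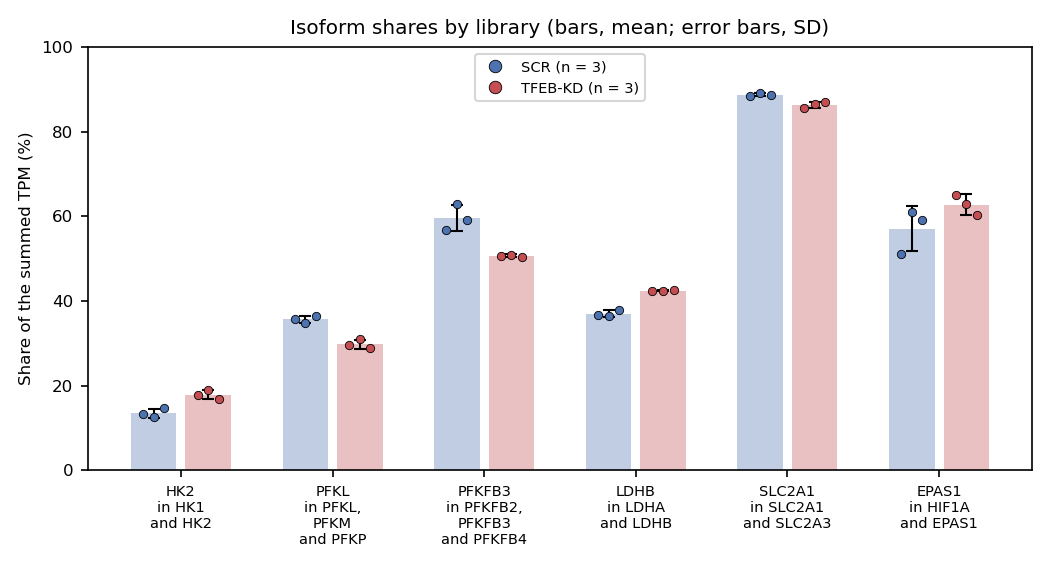
Share of one isoform in the summed TPM of its enzyme (percent, vertical axis) in each library, with bars at the group mean (n = 3) and error bars of 1 SD. The shares of HK2 and LDHB lie higher in TFEB-KD (17.8% and 42.5% on average), those of PFKL, PFKFB3 and SLC2A1 lower, and that of EPAS1 overlaps between the groups. A share also moves with the level of the other isoforms.

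As a share of all TPM, the 18 glycolytic enzymes from HK1 to PKM made up 1.16%, 1.23% and 1.18% in SCR and 1.29%, 1.26% and 1.24% in TFEB-KD. The groups did not overlap, but this rested on GAPDH. Without GAPDH, a set chosen with the values known, the other 17 enzymes made up 0.734% ± 0.0183 (SD, n = 3) for SCR and 0.715% ± 0.0269 (SD, n = 3) for TFEB-KD, with overlapping groups and the opposite direction. The lactate and pyruvate dehydrogenase kinase genes made up 0.254% ± 0.00564 (SD, n = 3) for SCR and 0.215% ± 0.000692 (SD, n = 3) for TFEB-KD. The other HIF targets made up 0.0261% ± 0.00087 (SD, n = 3) for SCR and 0.0378% ± 0.00313 (SD, n = 3) for TFEB-KD. By step, the ratio of TFEB-KD to SCR in mean summed TPM was lowest for glucose uptake at 0.721, followed by lactate dehydrogenase at 0.836 and lactate transport at 0.852, where the sums of the groups overlapped. It was highest for the PFKFB genes at 1.39, followed by GAPDH at 1.20 and GPI at 1.18. Mitochondrial transcripts, which enter the TPM total, took 4.37%, 4.45% and 3.71% of it in SCR and 5.13%, 5.20% and 5.03% in TFEB-KD, and leaving them out kept the direction of each sum.

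Estimated counts also depend on which transcripts of a gene are used, since longer transcripts give more reads. With offsets for transcript length, per gene and library, 9 of the genes were higher and 5 lower, beside 1489 and 2147 of all genes tested. HK2 fell below the fold threshold at 0.34, and LDHA passed it. VEGFA had a log2 fold change of 1.44, and ANGPTL4 one of 1.75. EPAS1 came to 0.15 (edgeR, adjusted p = 0.559), no longer past the p threshold. SLC16A1 turned from 0.082 to -0.25 (edgeR, adjusted p = 0.0505), so its direction depended on the treatment of transcript length.

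**Figure D4:**
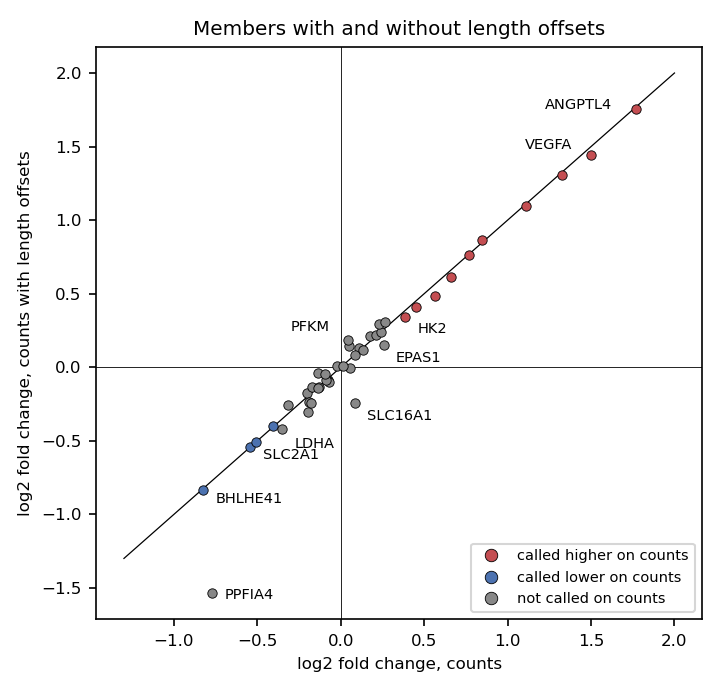
Log2 fold change of the 45 genes in edgeR on counts (horizontal axis) against edgeR with transcript length offsets (vertical axis), with the line of equality. The called genes lie near the line, while SLC16A1 (from 0.082 to -0.25) and the barely expressed PPFIA4 (from -0.77 to -1.54) leave it.

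Other genes of the pathway, outside the 48, were read in the same fit from 5 hand-written lists of 128 genes, of which 104 were tested. Of these, 13 were called higher (12.5%, beside 9.99% of all genes tested) and 20 lower (19.2%, beside 15%). Among 37 tested further HIF targets, 6 were higher and 6 lower. HMOX1, which encodes the heme-degrading enzyme and is also an oxidative stress gene, was at 110, 88.0 and 87.0 CPM in SCR and at 497, 476 and 536 CPM in TFEB-KD, a log2 fold change of 2.40 (SE 0.088, adjusted p = 1.70e-08). EDN1, the vasoconstrictor endothelin, had a log2 fold change of -2.14 (SE 0.14, adjusted p = 6.84e-07). Both lay far outside the spread of their groups, on opposite sides. BNIP3, a mitophagy receptor and classical HIF target, had a log2 fold change of 0.25 (adjusted p = 3.36e-03), and AK4, an adenylate kinase, one of -0.29 (adjusted p = 0.0515). These were named after their values were seen, and neither was called.

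Among 17 tested partners and turnover factors of HIF, 1 was higher (5.88%, beside 9.99% of all genes tested) and 4 lower (23.5%, beside 15%). ARNT2, a paralogue of ARNT that can also pair with the alpha subunits, was at 28.0, 33.5 and 36.4 CPM in SCR and at 9.96, 8.56 and 9.48 CPM in TFEB-KD, a log2 fold change of -1.80 (SE 0.098, adjusted p = 2.02e-07). CITED2, which competes with HIF for the coactivators CREBBP and EP300 and is itself a HIF target, was at 742, 841 and 976 CPM in SCR and at 339, 348 and 328 CPM in TFEB-KD, a log2 fold change of -1.33 (SE 0.084, adjusted p = 5.69e-07). Both fell without overlap between the groups, and by more than ARNT, whose log2 fold change was -0.20. CITED4, of the same family, had a log2 fold change of -0.71 (SE 0.088, adjusted p = 8.05e-05).

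Among 23 tested other genes of glycolysis and pyruvate handling, 3 were higher (13%, beside 9.99% of all genes tested) and 4 lower (17.4%, beside 15%). BPGM, which makes the phosphoglycerate that lowers haemoglobin's oxygen affinity in red cells, had a log2 fold change of 0.93 (SE 0.053, adjusted p = 2.81e-07). PDK3, another inhibitor kinase of pyruvate dehydrogenase, had one of 1.17 (SE 0.19, adjusted p = 5.01e-04) but was at only 2.01, 1.70 and 1.15 CPM in SCR and 3.87, 3.76 and 3.37 CPM in TFEB-KD. With length offsets the PDK3 value was 1.62 (adjusted p = 0.0720), and the call was lost. The transporter gene SLC2A10 had a log2 fold change of -0.55 (SE 0.056, adjusted p = 1.86e-05).

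Among 24 tested genes of the branches that leave glycolysis, 3 were higher and 6 lower (25%, beside 15% of all genes tested). The 3 that were higher (12.5%, beside 9.99% of all genes tested), PHGDH, PSAT1 and PSPH, are known as enzymes of serine synthesis. PSAT1 was at 96.5, 92.3 and 110 CPM in SCR and at 188, 184 and 170 CPM in TFEB-KD, a log2 fold change of 0.86 (SE 0.066, adjusted p = 2.39e-06), PHGDH had 0.65 (SE 0.055, adjusted p = 4.79e-06), and PSPH, named because it completes the count, 0.58 (SE 0.061, adjusted p = 2.57e-05). In these 3 genes the CPM of the groups did not overlap, as in 55.4% of all genes tested. UGP2, which feeds glycogen synthesis, had a log2 fold change of -0.72 (SE 0.043, adjusted p = 4.15e-07). In the same list, UAP1, PGM3 and GFPT2 of the hexosamine branch, PYGL of glycogen breakdown and RPIA of the pentose phosphate branch were the other genes called lower, and these were named after their values were seen. Of the 4 tested glucose-responsive regulators 1 was called (25% lower, beside the same 15%). ARRDC4, a target of the glucose sensor MondoA that limits glucose uptake, had a log2 fold change of -0.89 (SE 0.059, adjusted p = 9.06e-07). TXNIP, its better known relative and also named after its value was seen, had a log2 fold change of 0.15 (adjusted p = 0.0624).

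Of 8 proliferation markers, CCNB1, BUB1 and PLK1 were called lower and none higher, beside 15% and 9.99% of all genes tested. PCNA had a log2 fold change of 0.27 (adjusted p = 0.0134) and MCM2 one of -0.017 (adjusted p = 0.903). TOP2A had -0.35 (adjusted p = 0.0358) and CCNA2 -0.26 (adjusted p = 0.0750), and neither was called. The summed level of the 8 markers, led by PCNA, was 308, 311 and 237 TPM in SCR and 292, 298 and 291 TPM in TFEB-KD, with overlapping groups. MKI67, which was not called (adjusted p = 0.0569), was at 58.1, 69.3 and 41.0 CPM in SCR and at 45.5, 42.7 and 41.5 CPM in TFEB-KD. In MKI67, SCR replicate 3 lay at the level of the TFEB-KD libraries, and it also had the lowest sum of the 8 markers. Without SCR replicate 3, the log2 fold changes of the 14 called genes kept their direction and their call, with VEGFA at 1.57, BHLHE40 at 1.46, SLC2A1 at -0.49 and ENO2 at 0.41. That fit keeps the SCR libraries with the higher MKI67, so it cannot show whether proliferation bears on these calls, which was not tested.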

How the data were processed

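RNA-seq of HDFs at tBHP day 4 was analysed in 3 SCR and 3 TFEB-KD libraries. Libraries were made by the authors with a SMARTer mRNA-seq kit and sequenced as pairs. Per the labels and the methods, reads were trimmed with Trim Galore and run through STAR 2.7.10a and Salmon 1.10.1 in the nf-core pipeline on hg38 with a GENCODE annotation whose release is not given in the sources used here. The authors deposited estimated counts per gene, which are not normalized, and TPM, which are scaled for transcript length and to 1 total per library. Whether counting used strand is not given, so overlapping antisense genes are uncertain. The deposited table of the authors' own comparison (log2 fold changes and p-values) was not used.

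Counts were rounded, filtered with filterByExpr (16931 genes left), scaled by TMM and fitted in edgeR 4.0.16 (R 4.3.3, glmQLFit and glmQLFTest, no replicate block). The standard error is the unshrunk log2 fold change over the square root of F. The threshold of 0.36 is that of the study. On simulated counts for 16931 genes, this fit recovered 79 of 100 genes simulated at an absolute log2 fold change of 1 and 94 of 100 at 2, and called 15 unchanged genes. The common biological coefficient of variation was 0.0646. Chi-square per degree of freedom for pairs of libraries was 5.08 to 15.0 within groups and 102 to 149 between them, so none was a copy. Depth was 38769620 to 55135426 counts per library, which limits low genes. Genes were placed with GENCODE 44, which holds 62700 of the 62754 identifiers.

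The 48 genes and all lists were chosen with earlier results of these data known. By rule, the named genes are TFEB, the 48 and up to 3 called genes per wider list. The latter had the largest absolute log2 fold change at a mean of at least 1 CPM. Markers, PSPH and the genes said above to be named after their values were seen came in addition. Of the 48, values in every library are given for HIF1A, EPAS1, EGLN1, EGLN3, CA9, PDK4 and the 5 of highest mean TPM. They are also given, per list, for the 3 called genes with the largest increase and the 3 with the largest decrease. Alternatives were RLE factors, library sizes alone, DESeq2 1.42.0 with and without the gene filter, no filter, a replicate block, a minimum of 10 counts in each library, glmTreat, limma 3.58.1 on log2(TPM + 1), on log2(TPM + 0.1) and with a minimum of 0.5 TPM in 3 libraries, counts not rounded, transcript length offsets, each library left out, and a fold threshold of 1. Promoter windows (250 bases before to 50 after the start) are those of RefSeq on GRCh38.p14.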

Additional observations from a re-analysis of the deposited data

How the results depend on the processing

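Over the 45 tested genes and all alternatives at the fold threshold of 0.36, 822 of 853 values kept their direction and their side of the threshold, 9 lost a call, 5 gained one and 17 reversed, all of these among genes that were not called. With library sizes alone, PFKP came to 0.014, ALDOC to 0.070, ENO1 to 0.0070, PKM to 0.021 and LDHB to 0.00047. On TPM in limma, ALDOC came to 0.044 (pseudocount 1, with or without the TPM filter) and 0.051 (pseudocount 0.1), and SLC16A1 to -0.21 and -0.22. With length offsets HIF1AN came to -0.0085, ALDOC to 0.0080 and SLC16A1 to -0.25. With each library left out, the log2 fold change ran from -0.0037 to 0.11 for PFKFB2 and from -0.13 to 0.11 for ALDOC, and the difference in the share of SLC16A3 from -0.33 to 0.30 percentage points. The lost calls were those of HK2, PFKL and ENO2 (HK2 at 0.35 on log2(TPM + 1)), and the gained ones those of LDHA, at -0.38 without SCR replicate 1. The cause was not tested. Of all genes, glmTreat called 788 higher and 1573 lower, and 1668 or, with the TPM filter, 1641 were lower on log2(TPM + 1). At an absolute log2 fold change over 1, 422 and 864 of all genes, 4 and 0 of the 48 (in place of 10 and 4) and 3 and 4 of the wider genes were called higher and lower. With library sizes alone, 2497 genes were higher and 2047 lower. As shares of counts in place of TPM, the differences between groups were 0.126 percentage points for the 48 genes (0.0415 in TPM), 0.00819 for HIF factors (0.00084 in TPM, turning to -0.00088 with SCR replicate 1 left out and to -0.00034 with TFEB-KD replicate 1 left out), 0.113 for transporters and glycolytic enzymes (0.0687 in TPM), 0.119 for the enzymes alone (0.0741), -0.0282 for lactate and kinase genes (-0.0397) and 0.0322 for other HIF targets (0.0116). In TPM, the difference for the 48 genes ran from 0.0231 without SCR replicate 1 to 0.0623 without SCR replicate 2.

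Replicate numbers did not pair the libraries: correlations of the deviations of same-numbered libraries from their group means were -0.13, 0.033 and -0.014. With the replicate block, 1595 genes were higher and 2450 lower, and of the 48 genes 10 were higher and 4 lower. Depth limits EGLN3, PDK4 and CA9, which had too few counts to test.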
